A study of Mus musculus with 12 samples.

Results

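The type I interferon stimulated genes described here are 34 antiviral genes chosen by symbol, and 32 of them were in the tables of 17875 genes. The 2 without a row were Mx1 and Mx2, which were not analysed here; RefSeq annotates both on chromosome 16 as transcribed pseudogenes in the reference mouse strain. All 32 genes with a row passed the filter on low counts and were tested among 13453 genes. Values were taken from RNA sequencing of 12 libraries, 3 in each of 4 groups, made from colorectal tumours grown under the skin of mice. The stress group had chronic stress. The XCHT-L and XCHT-H groups had chronic stress and a low or a high dose of Xiaochaihu decoction, a herbal mixture, and the control group had the tumour alone. The labels used here give no dose in grams, no mouse strain, age or tumour cell line, and do not say that each library came from its own mouse, so the spread behind each p-value may be partly technical. Library totals ranged from 16734741 to 17950195 counts.

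Type I interferons are secreted by cells that sense foreign or misplaced nucleic acid. They bind the receptor pair Ifnar1 and Ifnar2, whose kinases Jak1 and Tyk2 activate Stat2, which enters the nucleus in a complex with Irf9. The complex binds the interferon stimulated response element (ISRE) in front of antiviral genes. In tumours the response is known in cancer cells, stromal cells and immune cells, and dendritic cells use it to prime T cells. Interferon gamma, from T and NK cells, uses another receptor and acts through another element, the GAS, and many genes answer both.

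RefSeq windows of GRCm38.p6, from 250 bases before to 50 after a start site, were found for 25 of the 32 genes. The ISRE was searched as GAAANNGAAA and, for the other strand, TTTCNNTTTC, and matches that overlap were each counted. It was found in 12 of these 25 genes (48.0%), against 3.9% of 10699 tested genes with a window. The GAS, searched as TTCNNNGAA, which reads the same on both strands, was found in 6 of the 25 (24.0%), against 8.4% of the 10699. Among genes of the interferon gamma axis the ISRE was in 10 of 18 (55.6%) and the GAS in 9 of 18 (50.0%). No match was found in 13 of the 25 genes, among them Irf7 and Irf9. The 5 windows below all hold a match and belong to genes whose levels are followed through the text. Capitals mark each ISRE match. Isg15 lies at chr4:156200769-156201068 on the minus strand, and its capitals hold 3 overlapping matches. Ifit1 (chr19:34640639-34640938) and Ifit3 (chr19:34583279-34583578), both on the plus strand, hold 2 each. Rsad2 (chr12:26456403-26456702) and Cxcl10 (chr5:92348840-92349139), both on the minus strand, hold 1 each.
Isg15: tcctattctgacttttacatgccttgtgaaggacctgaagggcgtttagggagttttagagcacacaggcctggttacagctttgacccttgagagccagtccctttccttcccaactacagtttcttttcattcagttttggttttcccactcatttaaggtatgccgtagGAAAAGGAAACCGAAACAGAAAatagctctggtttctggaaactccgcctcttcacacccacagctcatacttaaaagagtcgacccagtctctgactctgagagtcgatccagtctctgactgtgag
Ifit1: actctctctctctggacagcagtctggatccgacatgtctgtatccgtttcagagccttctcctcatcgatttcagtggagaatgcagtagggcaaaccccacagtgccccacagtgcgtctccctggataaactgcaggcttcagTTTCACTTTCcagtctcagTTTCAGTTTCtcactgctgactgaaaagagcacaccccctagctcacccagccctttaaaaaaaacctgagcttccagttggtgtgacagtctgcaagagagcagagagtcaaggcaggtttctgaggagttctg
Ifit3: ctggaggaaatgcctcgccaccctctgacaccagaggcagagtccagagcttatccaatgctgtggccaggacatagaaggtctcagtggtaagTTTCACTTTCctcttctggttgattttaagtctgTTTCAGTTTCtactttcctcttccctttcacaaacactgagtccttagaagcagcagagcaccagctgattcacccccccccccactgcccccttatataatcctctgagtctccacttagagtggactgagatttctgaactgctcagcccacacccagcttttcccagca
Rsad2: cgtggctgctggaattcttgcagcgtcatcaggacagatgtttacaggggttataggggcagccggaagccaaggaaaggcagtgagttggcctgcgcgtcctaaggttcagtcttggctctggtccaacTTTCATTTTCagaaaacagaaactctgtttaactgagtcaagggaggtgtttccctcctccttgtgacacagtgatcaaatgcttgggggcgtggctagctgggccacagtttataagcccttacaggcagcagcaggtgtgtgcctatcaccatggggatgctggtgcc
Cxcl10: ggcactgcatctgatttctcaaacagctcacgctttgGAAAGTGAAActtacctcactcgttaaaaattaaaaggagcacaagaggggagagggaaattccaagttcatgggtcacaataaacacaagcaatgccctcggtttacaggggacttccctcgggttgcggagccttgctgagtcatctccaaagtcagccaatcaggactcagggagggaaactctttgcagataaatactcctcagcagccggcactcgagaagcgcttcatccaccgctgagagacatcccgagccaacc
Ifit1 and Ifit3 share the letters of both matches. The 12 genes with an ISRE match spanned a median of 2.23 between their highest and lowest library on the log2 CPM scale, and the 13 without spanned 1.66. The spans overlapped, with 0.96 to 4.01 for genes with a match and 0.98 to 2.71 for genes without. From stress replicate 1 to stress replicate 2 the median difference was 0.28 with a match and 0.32 without. The split was not tested. A match is a description of letters, not of binding, and lack of an exact match in a window is not lack of the element.

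The 32 genes moved together from library to library more than from group to group. Every one of them was highest in stress replicate 2 (15 genes) or XCHT-H replicate 2 (17 genes), which were the highest library for 7.0% and 7.6% of all tested genes. Every one was lowest in stress replicate 3 (22 genes) or XCHT-L replicate 2 (10 genes), which were lowest for 11.7% and 21.4% of all tested genes. Between the highest and lowest library the genes spanned 0.96 to 4.01 on the log2 CPM scale (counts scaled to library size), with a median span of 1.81, against a median of 0.72 over all tested genes. The widest spans were those of Ifit3 (4.01), Ifit1 (3.99), Rsad2 (3.94) and Usp18 (3.40). Within groups the median SD of the genes was 0.82 in stress, 0.36 in XCHT-L, 0.66 in XCHT-H and 0.16 in control tumours on the log2 scale. Over all tested genes it was 0.16 in stress, 0.27 in XCHT-L, 0.17 in XCHT-H and 0.10 in control tumours.

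**Figure D1:**
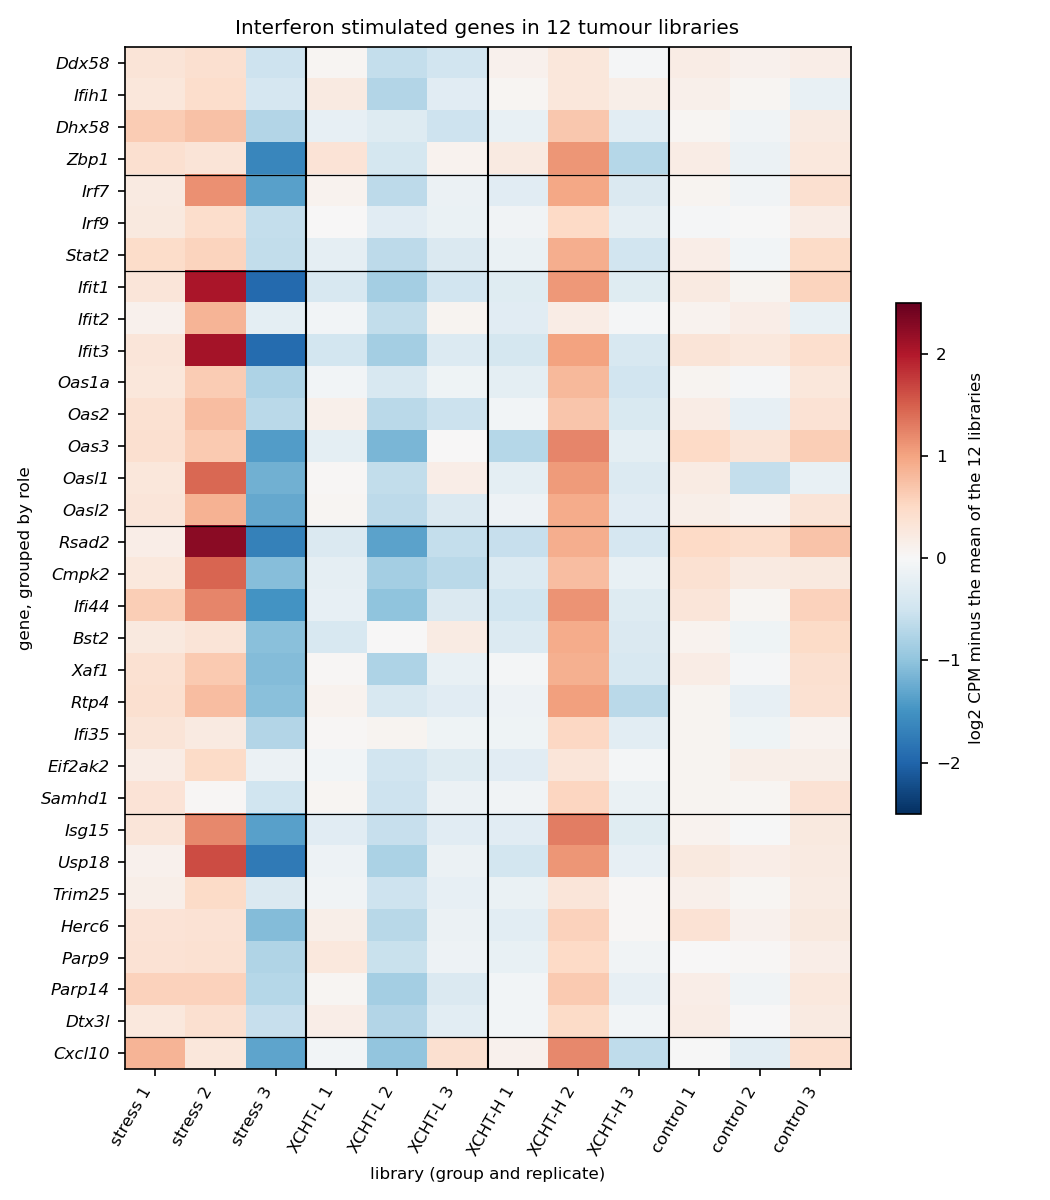
Each row is 1 of the 32 genes, grouped by role, and each column 1 of 12 libraries; colour gives log2 CPM minus the gene's mean over the 12 libraries. Stress replicate 2 and XCHT-H replicate 2 are red and stress replicate 3 is blue in nearly every row, while the control columns are pale.

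Markers of several cell types differed between these libraries. The defining markers of colorectal epithelium were at or near 0, with 7 of 9 listed markers in the tables below 1 TPM (transcript abundance scaled for length and library size) in all libraries and Epcam at most 0.84 TPM, so the labelled tissue was not seen in its usual epithelial markers. Summed TPM of 6 leukocyte markers ranged over 441.78 to 761.41 in stress, 459.48 to 742.17 in XCHT-L, 518.78 to 682.37 in XCHT-H and 539.08 to 563.50 in control libraries, and stress replicate 3 was the lowest. The sum of 10 T and NK cell markers was 183.79, 126.22 and 44.12 TPM in stress replicates 1 to 3, and 44.12 was the lowest of all 12. Skeletal muscle transcripts summed to 720.70 TPM in XCHT-H replicate 2, 381.80 in control replicate 1 and 271.35 in XCHT-L replicate 3, and to 60.62 or less in the other libraries. In XCHT-L replicate 2 the deviations of genes fell with gene length (r = -0.52 across 11758 genes, which are not independent replicates), against -0.16 to 0.30 in the other libraries. In bulk tissue, fewer cells of a type and less RNA per cell cannot be told apart.

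Of the 4 sensors of viral RNA and DNA, Ddx58 and Ifih1 were steadier than Dhx58 and Zbp1. Ddx58 (RIG-I), which detects short viral RNA ends, had 27.1, 28.7 and 14.9 TPM in stress, 22.7, 11.4 and 13.8 in XCHT-L, 23.4, 25.6 and 21.9 in XCHT-H and 25.1, 23.3 and 23.6 in control tumours. All 3 XCHT-L libraries lay below all 3 control libraries, as they did for 16.5% of all tested genes in TPM. Ifih1 (MDA5), a sensor of long double-stranded RNA, had 16.9, 18.6 and 9.95 TPM in stress, 16.2, 7.18 and 10.2 in XCHT-L, 14.4, 16.0 and 15.8 in XCHT-H and 15.1, 14.5 and 11.8 in control tumours. XCHT-L replicate 1 lay above every control, and XCHT-L replicates 2 and 3 lay below every control. Zbp1, a sensor of Z-form nucleic acid, had 82.5, 77.7 and 17.0 TPM in stress, 71.7, 34.6 and 56.5 in XCHT-L, 65.6, 124 and 34.8 in XCHT-H and 65.3, 54.9 and 73.0 in control tumours. No group stood apart for Zbp1. The fourth sensor, Dhx58 (LGP2), a regulator of the other RNA sensors, spanned 10.2 to 28.6 TPM.

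The transcription factors of the response followed the same libraries. Irf7, which amplifies interferon production, had 46.6, 87.6 and 15.3 TPM in stress, 42.5, 20.0 and 31.4 in XCHT-L, 32.7, 74.7 and 31.4 in XCHT-H and 42.0, 37.9 and 51.1 in control tumours. The highest and the lowest value were both in the stress group. Irf9, the DNA-binding part of the complex with Stat2, had 51.6, 57.7 and 27.6 TPM in stress, 43.0, 27.8 and 33.6 in XCHT-L, 40.4, 57.8 and 37.2 in XCHT-H and 42.5, 42.1 and 47.7 in control tumours. Stat2, its partner, had 56.9, 61.0 and 26.6 TPM in stress, 35.7, 21.0 and 28.4 in XCHT-L, 37.1, 75.0 and 30.6 in XCHT-H and 47.1, 39.9 and 56.6 in control tumours. For Stat2 all XCHT-L libraries lay below all controls (16.5% of all tested genes did in TPM), and the stress and XCHT-H groups overlapped both.

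The antiviral effectors varied most. Ifit1, which binds viral RNA lacking the host cap mark, had 16.6, 55.2 and 3.35 TPM in stress, 10.03, 5.79 and 8.41 in XCHT-L, 10.8, 27.2 and 10.99 in XCHT-H and 15.7, 13.8 and 19.0 in control tumours. Ifit3, which stabilises Ifit1 in human cells, had 45.5, 155 and 9.37 TPM in stress, 26.8, 16.2 and 25.1 in XCHT-L, 27.3, 71.0 and 28.0 in XCHT-H and 46.6, 44.1 and 47.8 in control tumours. In both genes the stress group held the highest and the lowest library. The XCHT-L group lay below the controls without overlap, as it did for 16.5% of all tested genes in TPM. Ifit3 shares 31.7% of its 100-base stretches with Ifit3b, so its counts are uncertain. Oas2, a double-stranded RNA sensor that makes the signal for RNase L, had 21.4, 28.0 and 10.1 TPM in stress, 18.02, 8.12 and 9.98 in XCHT-L, 15.7, 25.6 and 12.8 in XCHT-H and 19.0, 14.3 and 20.7 in control tumours. Rsad2 (viperin), which makes a chain-terminating nucleotide, had 8.30, 34.8 and 2.20 TPM in stress, 5.74, 2.27 and 4.25 in XCHT-L, 4.95, 13.2 and 5.61 in XCHT-H and 10.5, 9.98 and 11.7 in control tumours. Stress replicate 2 and XCHT-H replicate 2 were the only libraries above the controls for Rsad2. Its neighbour Cmpk2 spanned 5.74 to 35.9 TPM, and Ifi44 spanned 4.61 to 31.1 TPM, both with stress replicate 2 highest. Steadier effectors were Eif2ak2, with 17.9 to 47.1 TPM, Samhd1, with 78.9 to 200 TPM, and Ifi35, with 44.5 to 103 TPM. The other OAS family genes spanned 1.48 to 10.5 TPM (Oasl1) up to 22.0 to 98.9 TPM (Oasl2). Oas1a shares 40.9% of its 100-base stretches with Oas1g, Herc6 20.9% with Gm45193, Rtp4 11.2% with Gm45338 and Ifit1 3.3% with Ifit1bl2, and their counts are uncertain to that extent.

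Isg15, a ubiquitin-like protein joined to other proteins, had 121, 222 and 36.9 TPM in stress, 78.8, 49.6 and 68.6 in XCHT-L, 78.9, 225 and 79.0 in XCHT-H and 104, 96.2 and 110 in control tumours. Usp18, which removes Isg15 and dampens the receptor, had 13.3, 38.3 and 3.46 TPM in stress, 11.3, 5.57 and 9.76 in XCHT-L, 8.94, 25.4 and 10.8 in XCHT-H and 14.8, 13.7 and 14.1 in control tumours. In both genes replicate 2 was the highest of the stress and of the XCHT-H group, and the other 2 XCHT-H libraries lay below every control. Cxcl10, a chemokine that attracts T cells, had 254, 171 and 55.9 TPM in stress, 135, 55.4 and 164 in XCHT-L, 152, 310 and 91.7 in XCHT-H and 142, 118 and 182 in control tumours. Trim25 spanned 27.3 to 67.5 TPM, and Parp9 and Dtx3l, which work as a pair on ADP-ribose and ubiquitin, spanned 27.4 to 67.7 and 15.5 to 43.2 TPM. For Cxcl10, as for Zbp1, stress replicate 1 lay above stress replicate 2.

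**Figure D2:**
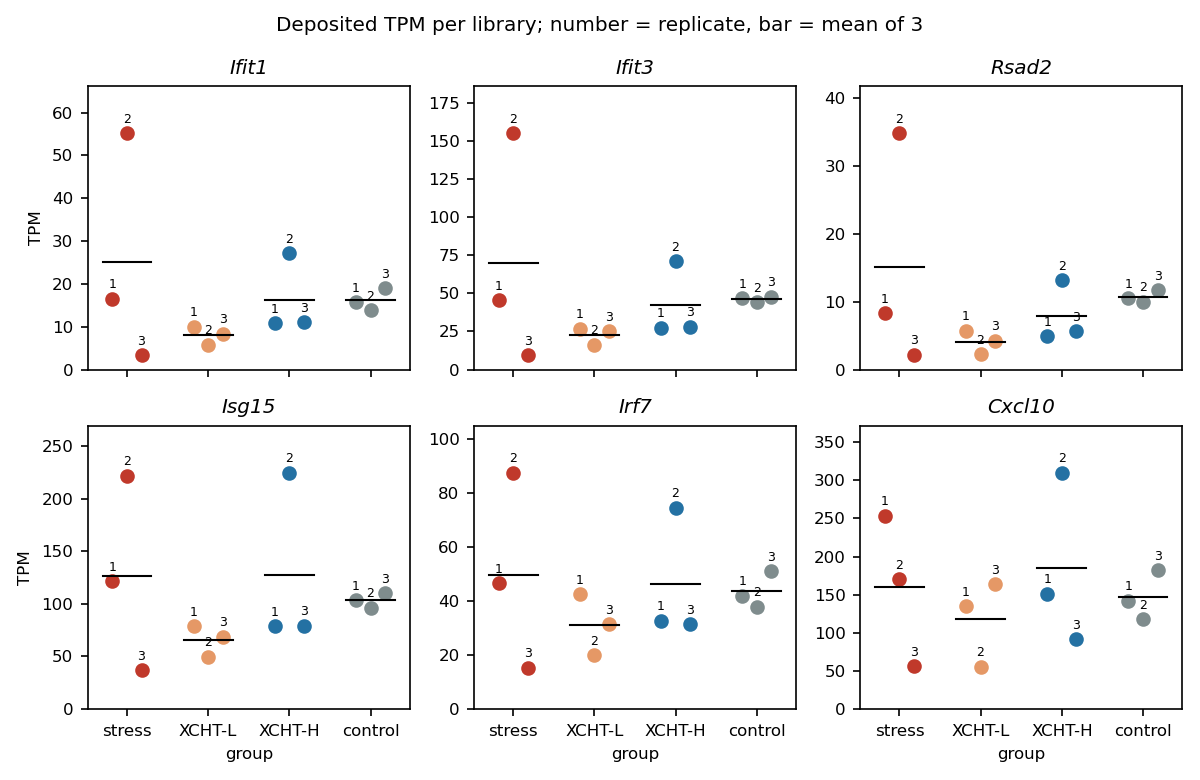
TPM of 6 genes on linear axes by group, with the replicate number beside each point and a bar at the mean of 3 libraries. The stress points run from 3.35 to 55.2 TPM for Ifit1, while the 3 control points lie between 13.8 and 19.0 TPM.

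The first comparison asked what chronic stress changed in the tumours. No interferon stimulated gene passed an adjusted p of 0.05 in stress against control tumours (edgeR quasi-likelihood test, Benjamini-Hochberg over 13453 genes), nor did any other gene (0% of those tested), and 0 of the 32 had an unadjusted p under 0.05, against 2.85% of all tested genes. The groups overlapped for each of the 32 genes, and for 14.1% of all tested genes they did not. DESeq2 and limma-voom also called 0 of the 32 genes in each of the 6 comparisons. Over all tested genes limma-voom called 0 in each, and DESeq2 called 95 (0.706%) in XCHT-L against stress, 71 (0.528%) in XCHT-L against control, 5 in XCHT-H against XCHT-L and at most 1 in the others. Fold changes lay above 0 for 23 (51.7% of all tested genes did) and below 0 for 9 genes, with a median log2 fold change of 0.09, against 0.01 over all tested genes. The smallest unadjusted p above 0 belonged to Oasl1, with a log2 fold change of 0.71 (SE 0.58, adjusted p = 1.0 in edgeR), Ifit2 at 0.28 (SE 0.26) and Ifit1 at 0.63 (SE 0.73). Below 0 they belonged to Samhd1, which breaks down nucleotides, at -0.17 (SE 0.23), Oas3 at -0.36 and Herc6 at -0.22. Leaving out stress replicate 2 gave a median of -0.24, and leaving out stress replicate 3 gave 0.39.

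The second asked what the low dose changed under stress. Again 0 genes passed in XCHT-L against stress tumours (0% of all tested), although 30 of the 32 lay below 0, against 50.1% of all tested genes. The groups overlapped for each of the 32 genes, and for 11.9% of all tested genes they did not. The median log2 fold change was -0.48, against 0.00 over all tested genes. Eif2ak2 (PKR), a kinase that halts translation on double-stranded RNA, had a log2 fold change of -0.48 (SE 0.18, unadjusted p = 0.0179, adjusted p = 0.316 in edgeR). Rsad2 had -1.77 (SE 0.79, unadjusted p = 0.0482, adjusted p = 0.373 in edgeR), and Cmpk2, its neighbour that supplies nucleotides, had -1.13 (SE 0.52). These 2 genes under an unadjusted p of 0.05, Eif2ak2 and Rsad2, are 2 of 32, and 6.55% of all tested genes were lower at that p. With all 12 libraries the 2 genes above 0 were Zbp1 at 0.09 and Bst2, which tethers budding viruses, at 0.002. Without stress replicate 3, the lowest library for 22 of the 32 genes, all 32 lay below 0 and 0 passed in edgeR. At an unadjusted p under 0.05 there were then 22, against 1390 of all 13646 genes tested in either direction. Without stress replicate 2 there were 0, against 1664 of 13649, and 7 genes lay above 0. Without XCHT-L replicate 2 there were 0, against 1109 of 13637, and 4 genes lay above 0. Without stress replicate 2 the values were -0.24 for Rsad2, -0.31 for Cmpk2 and -0.31 for Eif2ak2, with a median of -0.13 over the 32 genes, and without stress replicate 3 the median was -0.78. Of the interferon gamma axis 19 of 27 genes lay below 0 in the same comparison, with a median of -0.20. Markers of some other cells were lower too. Of the conventional dendritic cell genes 8 of 8 lay below 0 (median log2 fold change -1.26, 5 at an unadjusted p under 0.05 in edgeR). Of the T and NK cell genes 10 of 10 did (median -0.41), with 0 passing in either list. Of the endothelial markers 4 of 6 lay below 0 (median -0.31). Other lists did not go the same way. Above 0 lay 3 of 6 leukocyte, 6 of 10 macrophage and 4 of 7 fibroblast markers, with medians of 0.02, 0.06 and 0.21. The part of these cells in the result was not tested.

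The high dose was then set against stress. In XCHT-H against stress tumours 0 genes passed (0% of all tested), 0 had an unadjusted p under 0.05 in edgeR (1.42% of all tested), 0 had groups without overlap (5.75% of all tested), and 16 lay above 0 (48.9% of all tested) and 16 below, with a median log2 fold change of 0.001. The smallest p above 0 belonged to Zbp1 at 0.44 (SE 0.52), Bst2 at 0.25 and Samhd1 at 0.13. Below 0 they belonged to Ifit2 at -0.33 (SE 0.26), Rsad2 at -0.92 (SE 0.76) and Eif2ak2 at -0.18. Leaving out XCHT-H replicate 2 gave a median of -0.43, and leaving out stress replicate 2 gave 0.32.

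Between the doses, all 32 genes were higher in XCHT-H than in XCHT-L tumours, against 50.8% of all tested genes, and 0 passed in edgeR (0% of all tested). At an unadjusted p under 0.05 there were also 0, against 6.39% of all tested genes. The median log2 fold change was 0.45, against 0.00 over all tested genes. The smallest p belonged to Ddx58 at 0.44 (SE 0.22, unadjusted p = 0.0702, adjusted p = 0.758 in edgeR), Trim25, the ubiquitin ligase that activates it, at 0.32, and Eif2ak2 at 0.29. Ifit1 was the 1 gene whose groups did not overlap, and 4.16% of all tested genes were higher without overlap. Related gene lists also went this way. Of the interferon gamma axis 26 of 27 genes lay above 0 (median log2 fold change 0.52). Of 61 tested further interferon stimulated genes 51 did (median 0.25). The 8 conventional dendritic cell markers lay above 0 as well (median 1.14, 0 passing). So did 12 of 12 skeletal muscle, 4 of 4 tested red blood cell and 6 of 6 endothelial markers (medians 1.26, 1.94 and 0.45). Fewer did among T and NK cell (3 of 10), macrophage (3 of 10) and fibroblast markers (2 of 7). The part of these lists was not tested. Without XCHT-H replicate 2 the median of the 32 genes was 0.08, and without the 3 libraries rich in muscle transcripts it was 0.10 with 23 genes above 0.

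The low dose was also set against unstressed tumours. In XCHT-L against control tumours 31 of 32 genes lay below 0 (49.5% of all tested did), and for 16 of them (50.0%) all 3 XCHT-L libraries lay below all 3 controls, against 9.74% of all tested genes. These were Cmpk2, Ddx58, Dhx58, Eif2ak2, Ifi44, Ifit1, Ifit3, Isg15, Oas1a, Oas3, Oasl2, Rsad2, Samhd1, Stat2, Trim25 and Usp18. That count is on the log2 CPM scale. In TPM, the scale of the levels listed above, the same 16 genes did so, against 16.5% of all tested genes. None of the 32 passed an adjusted p of 0.05 in edgeR (0% of all tested), and 1, Eif2ak2, was lower at an unadjusted p under 0.05, as were 6.73% of all tested genes. The log2 fold change of Eif2ak2 was -0.40 (SE 0.18, unadjusted p = 0.0416, adjusted p = 0.365 in edgeR), followed by Ddx58 at -0.46 (SE 0.22) and Trim25 at -0.38 (SE 0.19). Oasl1 was the gene above 0, at 0.06. By role, the median was -0.31 for the 4 sensors, -0.35 for the 3 transcription factors, -0.47 for the 8 IFIT and OAS genes, -0.40 for 9 other effectors and -0.43 for 7 modifiers. Over all 32 the median was -0.40 and ranged from -0.53 to -0.27 as each library was left out. The count without overlap was 26 without XCHT-L replicate 1, where 24.1% of all tested genes were lower without overlap. It was 16 without the 3 libraries rich in muscle transcripts, where 22.5% of all tested genes were. In an edgeR fit of the 6 libraries compared alone, 14 of the 32 had an unadjusted p under 0.05, and 0 passed. Of all 13110 genes tested 1254 did, in either direction. Such fits gave 1 of the 32 at that p in XCHT-L against stress, beside 797 of all 13113 genes tested in either direction. In XCHT-H against XCHT-L they gave 2, beside 308 of 13172. They gave 0 in stress against control (1051 of 13132), XCHT-H against stress (197 of 13191) and XCHT-H against control (412 of 13155).

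Related gene lists were also lower in XCHT-L than in control tumours. Of the interferon gamma axis 24 of 27 genes lay below 0 (median log2 fold change -0.48), 2 of them without overlap. Of 61 tested further interferon stimulated genes 45 lay below 0 (median -0.16), and 12 of the 61 were lower without overlap. The markers of conventional dendritic cells were also low in the XCHT-L group. Their 8 genes summed to 7.64 to 17.58 TPM in XCHT-L and 29.89 to 34.26 TPM in control tumours, and all 8 had log2 fold changes below 0, with a median of -0.84 and 0 passing. In stress replicates 1 to 3 the median of log2 CPM minus the mean of the 12 libraries was 0.90, 0.03 and 0.36 for these markers. For the 32 interferon stimulated genes it was 0.31, 0.65 and -1.04. In XCHT-L replicates 1 to 3 it was -0.30, -1.32 and -0.49 for the markers and -0.03, -0.65 and -0.24 for the 32 genes. The part of these markers in the values of the interferon stimulated genes was not tested. Of the T and NK cell markers 7 of 10 lay above 0 against control, unlike against stress. Macrophage markers lay above 0 against control for 10 of 10, with a median of 0.33. In XCHT-H against control tumours 0 interferon stimulated genes passed (0% of all tested), 0 had an unadjusted p under 0.05 in edgeR (1.04% of all tested) and 0 had groups without overlap (8.7% of all tested). Of the 32, 21 lay above 0 (50.5% of all tested) and 11 below, with a median log2 fold change of 0.03. The smallest p belonged to Oasl1 at 0.48 (SE 0.58), Ifih1 at 0.16 and Cxcl10 at 0.35 above 0, and to Eif2ak2 at -0.10, Rsad2 at -0.42 and Trim25 at -0.07 below 0. The comparisons with stress share the stress libraries and those with control share the control libraries.

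**Figure D3:**
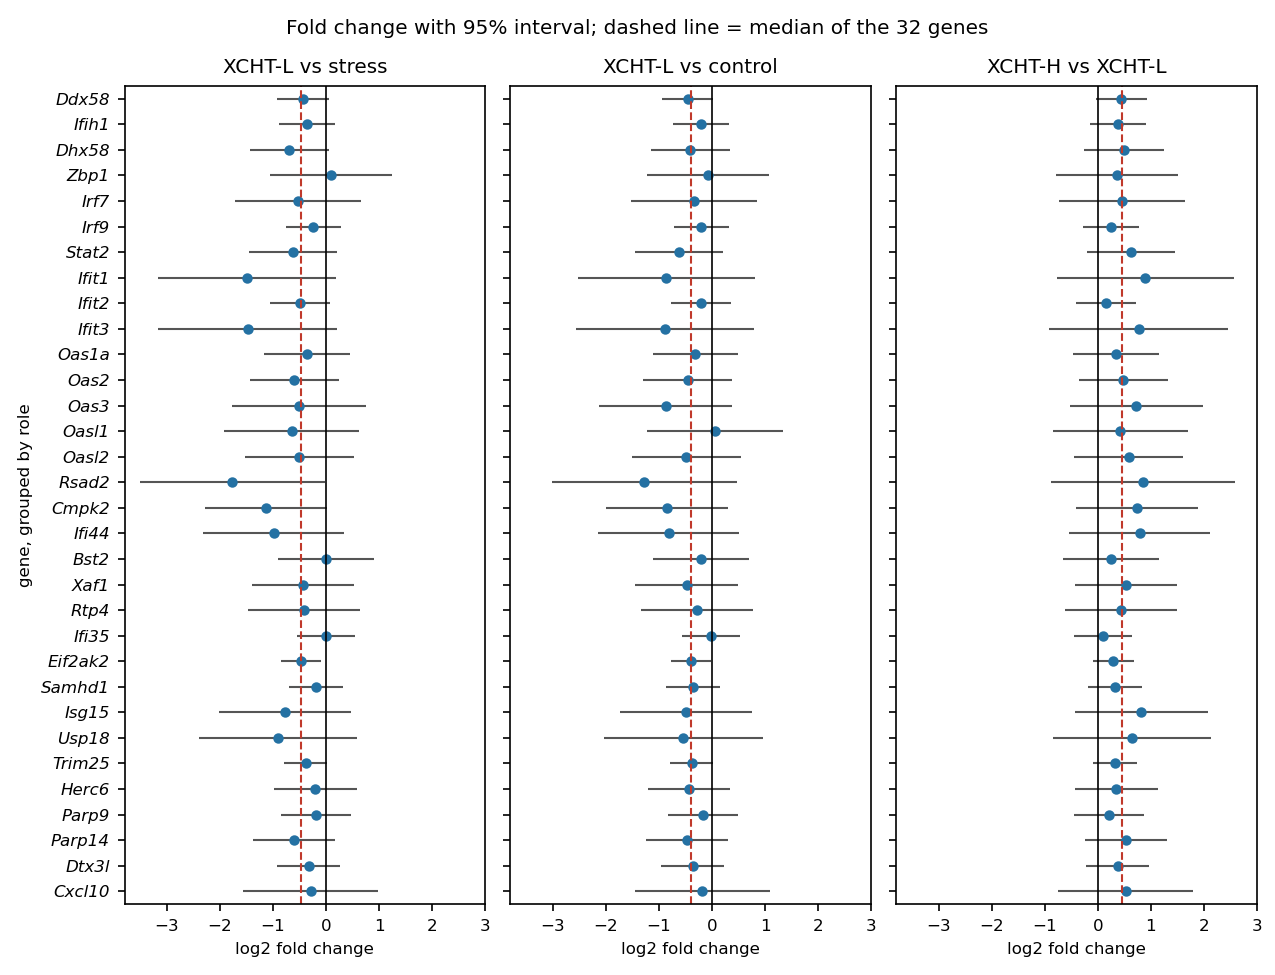
Log2 fold change of each of the 32 genes with its 95% interval, for XCHT-L against stress, XCHT-L against control and XCHT-H against XCHT-L; the dashed line is the median of the genes. The medians are -0.48, -0.40 and 0.45, and nearly all intervals cross 0.

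**Figure D4:**
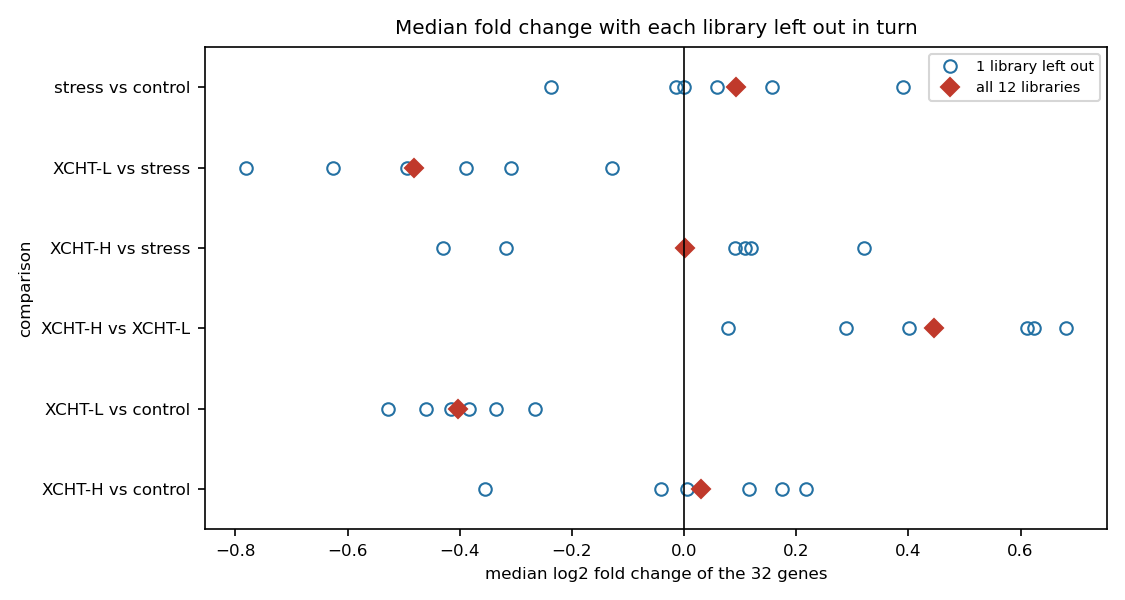
Median log2 fold change of the 32 genes in each of 6 comparisons, with all 12 libraries (diamonds) and with each library of the compared groups left out (open circles). The circles stay on 1 side of 0 for XCHT-L against stress, XCHT-H against XCHT-L and XCHT-L against control.

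The ligands that start the response were at or near 0 in these tumours. Of 18 listed type I interferon genes, 4 had a row and 14 were not analysed here. Ifnb1, an early interferon after sensing, had 0.43 TPM (2 counts) in stress replicate 1, 0.16 TPM (1 count) in XCHT-L replicate 2 and 0 in the other 10 libraries. Ifna15 and Ifnab each had a value above 0 in 1 library, of 0.34 TPM in XCHT-L replicate 1 and 0.27 TPM in stress replicate 1, and Ifnz spanned 0.21 to 0.93 TPM. Differences between groups in these ligands were not detectable at this depth.

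The receptor and its kinases varied little beside their targets. Ifnar1 had 31.1, 30.0 and 27.7 TPM in stress, 31.3, 16.9 and 20.8 in XCHT-L, 30.3, 23.3 and 29.9 in XCHT-H and 26.7, 27.4 and 26.4 in control tumours. Ifnar2 spanned 50.2 to 67.6 TPM over all 12. XCHT-L replicates 2 and 3 were the lowest libraries for Ifnar1. None of the 4 genes passed in any comparison. In XCHT-L against stress all 4 lay below 0, Tyk2 at -0.37 (SE 0.13, unadjusted p = 0.0164), Jak1 at -0.25 (SE 0.11, unadjusted p = 0.0425) and Ifnar1 at -0.24 in edgeR. Without XCHT-L replicate 1, Tyk2 (log2 fold change -0.54), Ifnar1 (-0.41) and Jak1 (-0.36) passed in that comparison, as did 9.12% of all genes tested without it (1244 of 13636), and 0 of the 32 interferon stimulated genes did.

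The 14 genes of the induction pathway, which carry the signal from sensor to interferon gene, had 0 passing in every comparison. In XCHT-L against stress 9 lay below and 5 above 0. Tbk1, the kinase that activates Irf3, had a log2 fold change of -0.23 (SE 0.08, unadjusted p = 0.0179 in edgeR), Irf3 had 0.23 (SE 0.10) and the adaptor Traf3 had -0.22. Among 8 brakes of the response 0 passed, and Adar, which edits double-stranded RNA so that sensors ignore it, had -0.44 (SE 0.16) in XCHT-L against stress. Of 61 tested further interferon stimulated genes 0 passed. In XCHT-L against stress 48 of them lay below 0, with a median of -0.20, and Ddx60 had -1.10 (SE 0.36), Pml -0.36 (SE 0.12) and Rnf213 -0.73 (SE 0.29).

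The interferon gamma axis moved with the same libraries but not in the same proportions. Ifng itself had 4.20, 1.68 and 0.98 TPM in stress, 3.16, 1.39 and 1.73 in XCHT-L, 1.72, 3.91 and 1.94 in XCHT-H and 2.98, 1.46 and 2.71 in control tumours. Stress replicate 1 was the highest library for Ifng and stress replicate 3 the lowest. The median log2 deviation of the 27 gamma axis genes was 0.62, 0.16 and -1.17 in stress replicates 1 to 3, and that of the 32 type I genes was 0.31, 0.65 and -1.04. Stress replicate 2 was higher than stress replicate 1 for 27 of the 32 type I genes, by a median of 0.28 on the log2 scale. The differences ran from 2.07 for Rsad2, 1.78 for Ifit3, 1.74 for Ifit1 and 1.53 for Usp18 down to -0.33 for Samhd1 and -0.55 for Cxcl10. In XCHT-H replicate 2 the medians were 0.82 for the gamma axis and 0.85 for the type I genes. The 13 genes of MHC class I presentation had medians of 0.48, -0.08 and -0.61 in the stress replicates. These are descriptions of single libraries, with no test.

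**Figure D5:**
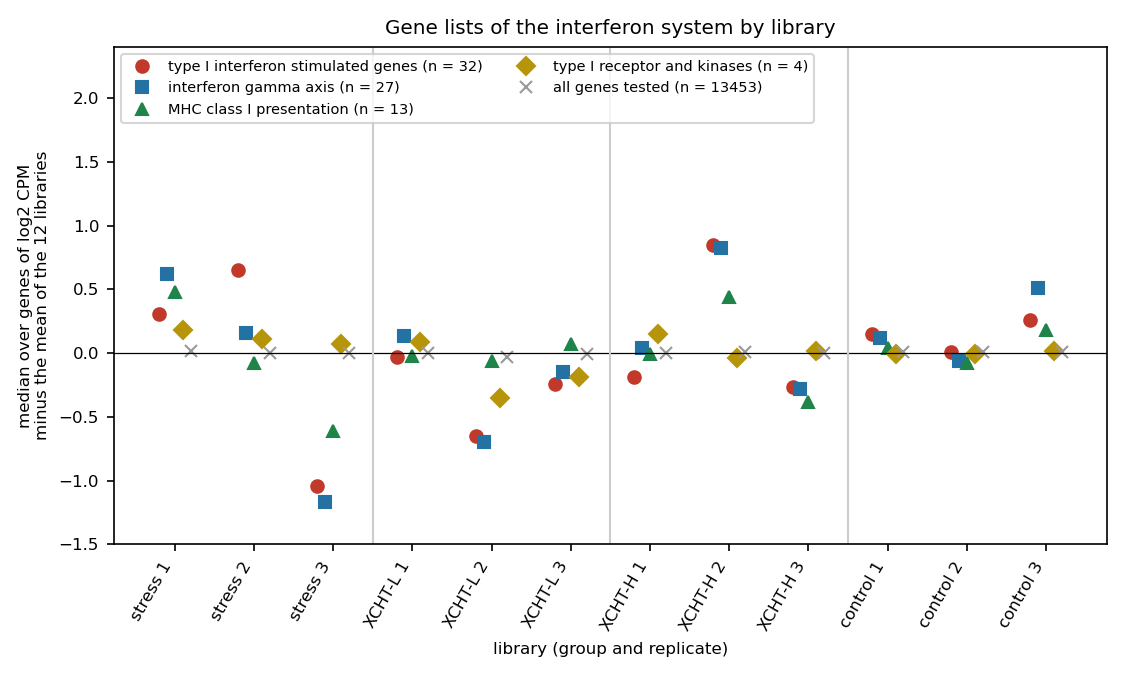
Median over each gene list of log2 CPM minus the mean of 12 libraries, by library. Type I genes lie above the gamma axis in stress replicate 2 (0.65 and 0.16) and below it in stress replicate 1 (0.31 and 0.62), and the receptor and kinase genes stay between -0.35 and 0.18.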

How the data were processed

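RNA sequencing was done on 12 tumour libraries in 4 groups of 3. Per the labels, RNA was selected for poly(A) and libraries were made with a method that marks strand. Per the submitters' processing notes, cutadapt 1.9, HISAT2 2.0.4, StringTie 1.3.4d, DESeq2 and edgeR were used with GRCm38.p6; counting options are not given in the sources used here. The authors deposited expected counts per gene, of which 11.7% to 12.5% per library were not whole, so they were rounded. The deposited TPM values, scaled by the authors for length and library total, gave the levels. The deposited FPKM values were not used for results.

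Genes were kept with filterByExpr at a minimum count of 10. TMM factors and quasi-likelihood tests of edgeR 4.0.16 (R 4.3.3, robust, 2-sided) were run in 1 model of 12 libraries with 8 residual degrees of freedom, and p-values were adjusted by Benjamini-Hochberg over 13453 genes with a threshold of 0.05. The scripts were tested on simulated data. Log2 CPM used a prior count of 2. The median SE of the 32 fold changes was 0.39. Alternatives used DESeq2 1.42.0, limma 3.58.1 with quality weights, other scaling and filters, each library left out, and a replicate block. The genes, lists and comparisons were chosen with earlier results of these data known. Values by library were given for 13 genes picked to cover the roles. Since none passed, the text names in each comparison up to 3 genes on either side of 0, by smallest unadjusted p. For pathway lists up to 3 were named, with Ifnar1, Ifnar2, Ifnb1 and Ifng always, and another gene of that rule is not reported here.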

Additional observations from a re-analysis of the deposited data

How the results depend on the processing

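In each comparison 0 of the 32 genes passed under each of 10 other settings and with each library left out. Over all genes the share passing was also near 0 except with DESeq2 (0.706% in XCHT-L against stress, 0.528% in XCHT-L against control) and without XCHT-L replicate 1 (9.12% in XCHT-L against stress, 4.78% in XCHT-L against control and 0.726% in XCHT-H against XCHT-L). The median fold change kept its sign under the other settings for XCHT-L against stress (-0.52 to -0.37), XCHT-H against XCHT-L (0.10 to 0.45) and XCHT-L against control (-0.43 to -0.35), and crossed 0 for the others. Same-numbered libraries did not deviate together (3 of 18 pairs had a correlation over 0.1, range -0.451 to 0.415; 5 of 12 libraries correlated best with their own number). With the replicate block 0 genes passed and the medians were -0.021, -0.365, -0.001, 0.398, -0.412 and -0.050 for stress against control, XCHT-L and XCHT-H against stress, XCHT-H against XCHT-L, and XCHT-L and XCHT-H against control.

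Named fold changes, none of which had passed, changed sign as follows, and the cause was not tested. With limma-voom quality weights Ifit1 was -0.032 in stress against control, Bst2 -0.085 and Samhd1 -0.091 in XCHT-H against stress, and Cxcl10 -0.059 in XCHT-H against control. Bst2 in XCHT-L against stress was -0.001 at a minimum count of 50, -0.11 with the muscle score as covariate, -0.14 without the 3 muscle-rich libraries and -0.25 with length and GC trends removed. With the muscle score Bst2 was -0.091 and Samhd1 -0.004 in XCHT-H against stress. Without the 3 muscle-rich libraries Zbp1 was -0.12, Bst2 -0.31 and Samhd1 -0.12 in XCHT-H against stress, and Cxcl10 -0.34 in XCHT-H against control. Oasl1 in XCHT-L against control was -0.002 with length and GC trends removed. These settings on muscle, length and GC were chosen after seeing the data.

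Leaving out 1 library at a time moved the median from -0.24 to 0.39 in stress against control, -0.78 to -0.13 in XCHT-L against stress, -0.43 to 0.32 in XCHT-H against stress, 0.08 to 0.68 in XCHT-H against XCHT-L, -0.53 to -0.27 in XCHT-L against control and -0.36 to 0.22 in XCHT-H against control. Named genes that changed sign ranged, in stress against control, over -0.12 to 1.15 (Oasl1), -0.09 to 0.49 (Ifit2), -0.71 to 1.15 (Ifit1), -0.38 to 0.024 (Samhd1), -0.72 to 0.047 (Oas3) and -0.43 to 0.12 (Herc6). In XCHT-L against stress they ranged over -0.31 to 0.38 (Zbp1) and -0.30 to 0.22 (Bst2). In XCHT-H against stress they ranged over -0.12 to 0.78 (Zbp1), -0.31 to 0.47 (Bst2), -0.12 to 0.35 (Samhd1), -0.53 to 0.037 (Ifit2) and -1.54 to 0.61 (Rsad2). Oasl1 ranged over -0.13 to 0.29 in XCHT-L against control. In XCHT-H against control they ranged over -0.14 to 0.73 (Oasl1), -0.30 to 0.68 (Cxcl10), -0.28 to 0.028 (Eif2ak2) and -0.20 to 0.035 (Trim25). Rsad2 and Cmpk2 kept their sign in XCHT-L against stress but ranged over -2.26 to -0.24 and -1.53 to -0.31. The count of genes below the controls without overlap in XCHT-L ranged from 16 (without XCHT-L replicate 2, among others) to 26 (without XCHT-L replicate 1). Of all tested genes 12.4% and 24.1% were lower without overlap in these 2 settings, against 9.74% with all 12 libraries. Passing genes of the pathway lists ranged from 0 to 3 (receptor and kinases), 0 to 2 (induction) and 0 to 5 of 61 (further interferon stimulated genes), all without XCHT-L replicate 1, where 9.12% of all genes passed against stress. The induction genes were Tlr9 and Tlr3, and the further genes Ifi203, Trim30a, Trim30d, Ddx60 and Lgals9, all lower in XCHT-L than in stress and named after their values were seen.

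With 3 libraries a group and a median SE of 0.39, smaller changes of single genes than the intervals given could not be told from 0.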
